A study of Homo sapiens with 19 samples.

Results

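HHIP and 9 further genes of the Hedgehog pathway (PTCH1, GLI1, GLI2, GLI3, SMO, SUFU, SHH, IHH and BOC) were followed through the first days of brown adipocyte (BA) induction. They are 10 of the 20503 genes that could be matched to a probe through a RefSeq accession, and they have 16 probes between them. The group was selected on measured values, since HHIP was proposed with its course over these same arrays known, so the values of the 10 genes are given as a description with no test. The cells came from KhES-3, a line of human embryonic stem cells (hESCs) that was kept on irradiated mouse embryonic fibroblasts per the labels, whereas the study's methods name a feeder-free system. For induction they were moved to a low-attachment dish in a serum-free BA medium with a cytokine cocktail of IGF-II, BMP4, VEGFA, KITLG, FLT3LG and IL-6. Total RNA was hybridized to one-colour Agilent arrays, with 1 array at each of 19 times after induction. Slide 1 held 3, 4, 6, 8, 10 and 12 h, slide 2 held 14, 16, 20 and 24 h together with 28, 32, 36 and 42 h, and slide 3 held 48, 54, 60, 66 and 72 h, so time and slide overlap. All 19 samples carry the same line and the same medium and differ in time only, no array before 3 h was analysed here, and no Hedgehog ligand or inhibitor is named among the agents. No time point was repeated, so how much separate cultures would differ cannot be said.

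Hedgehog ligands are secreted proteins that bind Patched on the receiving cell. Without ligand, Patched holds back Smoothened, the membrane protein that passes the signal on through the primary cilium, and the GLI transcription factors are trimmed into repressors or kept inactive by SUFU. With ligand, Smoothened is released and GLI proteins switch on target genes. PTCH1, GLI1 and HHIP are themselves classical targets, so their transcripts are commonly read as a measure of pathway activity, and PTCH1 and HHIP, which both bind ligand, close a negative feedback loop.

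The sequences just before the transcription starts of HHIP and PTCH1 are shown because these are feedback targets that both bind ligand and whose courses differed over the arrays. They are the 250 bases before a RefSeq start in GRCh38.p14, read 5′ to 3′ on the strand of the gene, for HHIP at chr4:144645906-144646155 on the + strand and for PTCH1 at chr9:95509267-95509516 on the - strand. The capitals mark the GLI consensus motif GACCACCCA or its reverse complement TGGGTGGTC, searched on both strands.
HHIP upstream: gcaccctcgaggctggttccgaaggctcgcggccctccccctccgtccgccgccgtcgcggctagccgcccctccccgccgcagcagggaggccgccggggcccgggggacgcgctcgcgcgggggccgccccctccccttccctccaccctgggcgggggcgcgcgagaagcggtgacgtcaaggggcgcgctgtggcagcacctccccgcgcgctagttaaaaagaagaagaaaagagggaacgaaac
PTCH1 upstream: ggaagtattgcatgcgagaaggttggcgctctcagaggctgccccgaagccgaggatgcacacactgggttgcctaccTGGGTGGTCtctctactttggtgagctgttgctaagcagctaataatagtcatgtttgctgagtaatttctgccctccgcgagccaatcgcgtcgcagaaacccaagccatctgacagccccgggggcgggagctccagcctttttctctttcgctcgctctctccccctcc
PTCH1 has 5 such windows, of which the one shown was picked because it alone holds a match, 172 to 164 bases before the start, and the other 4 hold none. HHIP has 1 window, which holds none. Over 35116 upstream windows of 250 bases, 70 (0.199%) held the motif, and of the 14 windows of 8 of the 10 genes 1 did. GLI1 and GLI3 had no window to search. A match is a stretch of letters and not a measured binding site, and the absence of a match concerns this window alone.

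Signals are given as the processed intensity scaled so that the 75th percentile of every array equals 725, its value on the 8 h array. Early means the arrays at 3, 4 and 6 h and late those at 60, 66 and 72 h, and a change is the mean late log2 signal minus the mean early log2 signal. A slope is the change in log2 signal per hour over all 19 arrays with its standard error, and the scatter is the residual standard deviation around that line. Between 49.5% and 64.7% of probes per array were well above background, with the fewest at 14, 16 and 72 h. All 10 markers of hESCs were well above background on all 19 arrays, with POU5F1 at a mean signal of 376370 early and 289100 late. Scaling set the zero line. Scaled to the 75th percentile, the 32111 tested probes had a median change of 0.068, against -0.27 under array-median scaling, -0.52 under scaling to spike-in transcripts and 0.0048 after normexp and quantile normalization. In bulk RNA, fewer cells that express a gene and less RNA per cell cannot be told apart.

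HHIP encodes a membrane and secreted protein that captures Hedgehog ligands and so limits their range. Its signal (NM_022475) was highest at 3 h (239.8), had a median of 156 and was lowest at 72 h (10.9). From 3 to 20 h it stayed between 166 and 239.8, with 192 at 20 h. The arrays at 24 and 28 h read 156 and 147. The arrays at 32, 36 and 42 h read 102, 118 and 109.8.
On slide 3 each successive array was lower than the last. The signals were 98.2, 81.0, 56.6, 30.7 and 10.9 in order of time from 48 h. The values at 66 and 72 h were not well above background, so there the level is known only to be low. HHIP was at 49.9% of its early mean by 32 h and at 27.8% by 60 h.

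**Figure D1:**
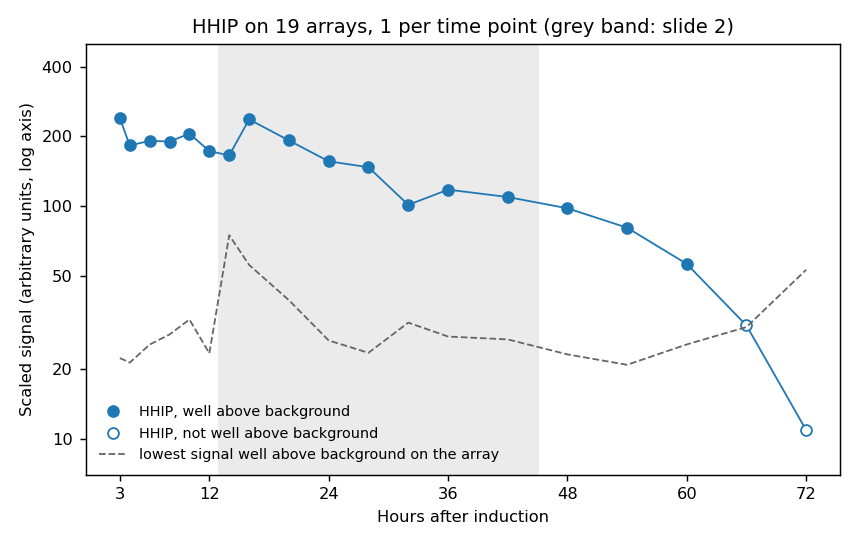
Scaled HHIP signal (log axis, arbitrary units) against hours after induction, 1 point per array, with filled points well above background, open points not, and the dashed line the lowest signal well above background on each array. HHIP lies between 166 and 239.8 up to 20 h and comes down to 56.6 at 60 h, and the 66 h point lies on the dashed line and the 72 h point below it.

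The early arrays of HHIP spanned 183 to 239.8 and the late ones 10.9 to 56.6, with no overlap. The change was -2.93 on the log2 scale, a 7.62-fold lower mean signal, with 3 of 3 early but 1 of 3 late arrays well above background. Its size therefore rests on signals near the floor. With each signal below the lowest detected one on its array put at that level, the change was -2.17, and with 48, 54 and 60 h as the late window, all well above background, it was -1.41. Without the 72 h array it was -2.29.
The slope was -0.045 ± 0.0051 per hour with a scatter of 0.51. HHIP had a negative slope within each slide, of -0.026 ± 0.018 on slide 1, -0.036 ± 0.0084 on slide 2 and -0.13 ± 0.018 on slide 3, where 2 of the 5 arrays (66 and 72 h) had no HHIP signal well above background. The 72 h array has one of the highest detection limits and a lower share of detected probes, and the part of this in its HHIP value was not tested.

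SHH and IHH encode secreted Hedgehog ligands. SHH (NM_000193), the ligand of neural tube and limb patterning, was well above background on 11 of 19 arrays. Its signal had a lowest value of 17.95 at 10 h, a median of 43.7 and a highest value of 90.5 at 28 h, and neighbouring arrays differed by up to 1.33 in log2 within a slide. Early (37.6 to 69.7) and late (42.7 to 67.4) signals overlapped and the change was 0.14, which became -0.19 with the array median, -0.44 with the spike-in and -0.080 with normexp, and -0.040 without the 6 h and -0.021 without the 66 h array.
IHH (NM_002181), the ligand best known from growing cartilage and gut, was detected well above background throughout. Its signal ranged from 132 at 24 h to 578 at 66 h with a median of 196. Up to 36 h no array was above 221, and from 42 h on none was below 233. The change was 1.04, a 2.05-fold higher late mean, with no overlap between early (133 to 196) and late (233 to 578) arrays. It was above 0 under all 4 scalings, at 0.45 with the spike-in, and 0.66 without the 66 h array. The IHH slope was 0.018 ± 0.0043 per hour, and 0.014 ± 0.012 with the slide as a block. The third ligand gene, DHH, was well above background on no array.

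PTCH1 encodes the receptor that binds ligand and restrains Smoothened, and BOC a co-receptor that helps present ligand to it. The brightest PTCH1 probe (NM_001083602) had a signal of 1465 at 3 h, its lowest value of 797 at 6 h, a median of 1377 and its highest value of 2270.3 at 36 h. The 6 arrays from 20 to 36 h and at 48 h lay between 1751 and 2270.3, and those at 66 and 72 h at 1124 and 1180. The 42 h array read 1262, so the higher signals in the middle were not unbroken. The early (797 to 1465) and late (1124 to 1691) ranges overlapped and the change was 0.17.
The other PTCH1 probe followed with a Pearson r of 0.82 over the 19 arrays, a lowest signal of 113 at 72 h and a highest of 429.99 at 28 h. It too was lower at 42 h (181) than at 36 h (391) and 48 h (267). The sign of the PTCH1 change depended on the scaling, with -0.17 for the array median and -0.41 for the spike-in, and on single arrays, with -0.098 without 6 h and -0.012 without 60 h. With 6, 8 and 10 h against 54, 60 and 66 h it was 0.76. The arrays from 20 to 48 h, which include the highest PTCH1 signals, lie outside both windows.
BOC (NM_033254) was a dim gene, well above background on 17 arrays (not at 14 and 16 h). Its signal ranged from 42.4 at 16 h to 115 at 72 h with a median of 60.3. The change was 0.49 with overlapping early (53.5 to 64.1) and late (60.3 to 115) arrays, and -0.095 with the spike-in.

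SMO (NM_005631), which encodes Smoothened, was well above background on every array. Its signal was 10571 at 8 h, the highest, had a median of 5812 and was lowest at 72 h with 3969. The 6 arrays from 3 to 12 h lay between 9049 and 10571, those from 14 to 42 h between 4534 and 6813 and those from 48 to 72 h between 3969 and 5812.
The SMO change was -1.30, a 2.46-fold lower late mean, and early (9812 to 10440.0) and late (3969 to 4213) arrays did not overlap. Its slope was -0.020 ± 0.0026 per hour with a scatter of 0.24. From 12 to 14 h, where slide 1 ends and slide 2 begins, the log2 signal changed by -0.42, against a largest step of 0.29 between neighbours of 1 slide. Within slides the slopes were -0.010 ± 0.012, -0.013 ± 0.0062 and -0.022 ± 0.0071, and the slope was -0.016 ± 0.0040 when slide entered the fit as a block. Hours and slide cannot be told apart for the step at 14 h.
SUFU (NM_016169), the cytoplasmic inhibitor that holds GLI proteins, went the other way at the same boundary on its brightest probe. The signal of that probe ranged from 67.2 at 3 h to 178 at 42 h with a median of 139. It lay between 67.2 and 109 on slide 1 but between 117 and 178 on every later array. Its step from 12 to 14 h was 0.75 in log2, against 0.40 for the next SUFU probe and -0.026 for the probe of NM_001178133. Neither of these other probes was well above background at 14 h. The slope of the brightest probe was 0.0095 ± 0.0038 per hour but 0.0014 ± 0.0054 with the slide as a block. Its change was 0.59, with 0.0073 under the spike-in. The change was 0.63 for the next probe (r = 0.68 with the brightest) and 0.19 for the probe of NM_001178133 (r = -0.29 with the brightest).

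The GLI genes encode the zinc-finger factors at the end of the pathway, with GLI1 an activator and target, GLI2 the main activator and GLI3 the main repressor. GLI1 (NM_005269) had its highest signal at 16 h (5842), a median of 4309.6 and its lowest at 28 h (2923). It lay between 4524 and 5842 from 3 to 20 h and, apart from 24 and 42 h (4230.2 and 4309.6), between 2923 and 3838 after that. The change was -0.57, with the early arrays (4536 to 4798) above the late ones (2959 to 3349), and the slope -0.011 ± 0.0022. With the slide as a block the GLI1 slope was -0.015 ± 0.0062. Within slides 1, 2 and 3 it was 0.0033 ± 0.011, -0.023 ± 0.0099 and -0.0028 ± 0.0070.
GLI2 (NM_005270) on its brightest probe was highest at 8 h (1519), had a median of 869 and was lowest at 72 h (667). It went from 1214 at 12 h to 869 at 14 h, came back to between 1056 and 1181 from 42 to 54 h, and was at most 810.1 later, for a change of -0.86. The slope of this brightest probe was -0.010 ± 0.0033, and -0.0060 ± 0.0065 with the slide as a block. The next GLI2 probe followed it (r = 0.88, change -0.57). Another GLI2 probe did not: it read 440.1 at 14 h and 899 at 72 h but between 64.3 and 126 on the other 17 arrays, and the mean over GLI2 probes had a change of 0.032. The arrays at 14 and 72 h are among the 3 with the fewest detected probes, and the part of that in these readings was not tested.
GLI3 (NM_000168) was highest at 6 h (4378), had a median of 2687 and was lowest at 60 h (1716). Early arrays (3432 to 4378) lay above the late ones (1716 to 2116) with a change of -0.997, a slope of -0.014 ± 0.0022 and a scatter of 0.20. Fitted with slide as a block, that slope was -0.0030 ± 0.0052.

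**Figure D2:**
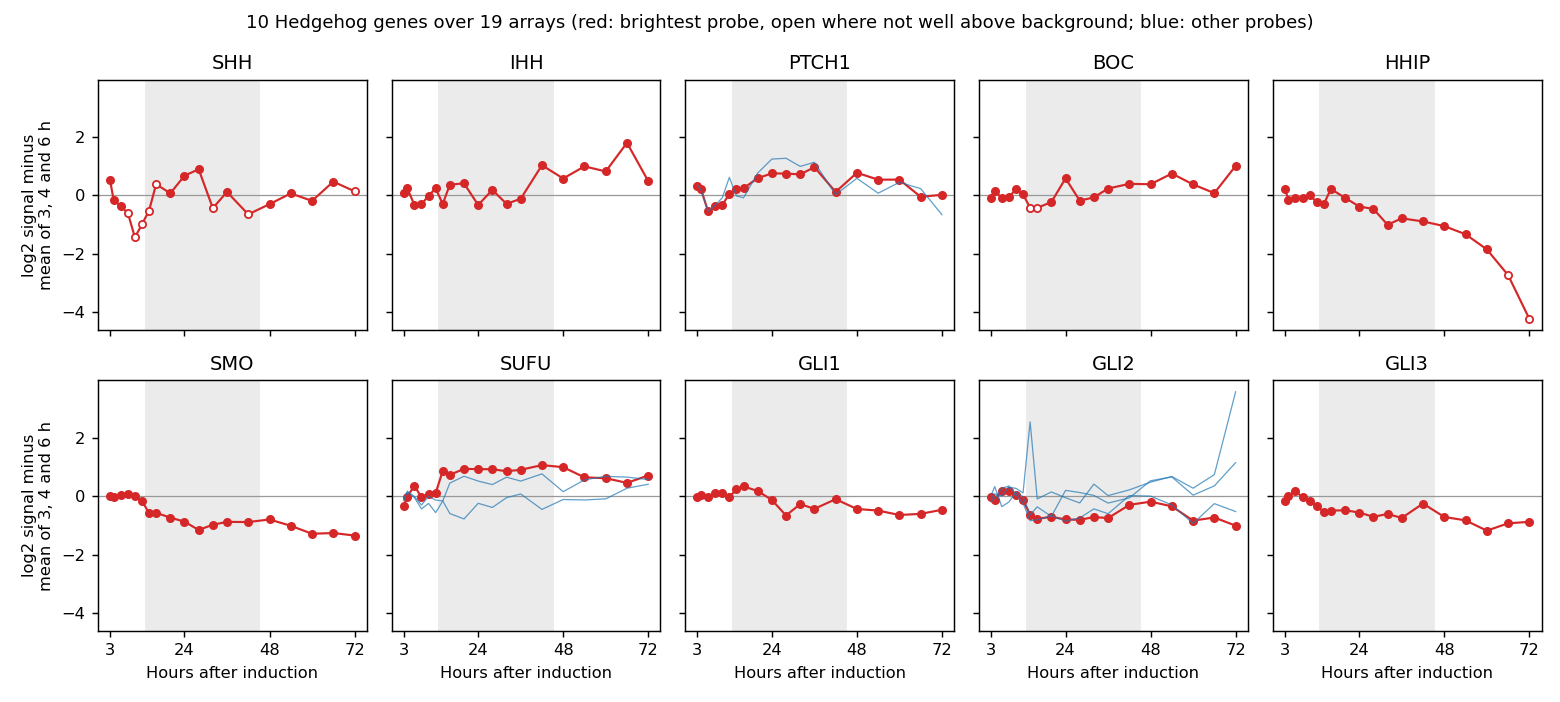
The log2 signal of each of the 10 genes minus its mean at 3, 4 and 6 h, against hours after induction, with the brightest probe in red (open points not well above background), other probes in blue and slide 2 in grey. HHIP goes furthest down, and SMO and GLI3 sit lower and the brightest SUFU probe higher from 14 h on. PTCH1 is highest at 36 h, IHH is higher from 42 h, and 1 GLI2 probe departs at 14 and 72 h.

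Of the 10 genes, 5 (HHIP, SMO, GLI1, GLI2 and GLI3) had a change below 0 under all 4 scalings and 2 (IHH and SUFU) above 0, while for PTCH1, SHH and BOC the sign depended on the scaling. The targets PTCH1, GLI1 and HHIP had changes of 0.17, -0.57 and -2.93 side by side. They differed in shape: PTCH1 was highest at 36 h, GLI1 at 16 h and HHIP at 3 h. HHIP had an r of 0.72 with SMO, 0.68 with GLI1 and -0.027 with PTCH1 over the 19 arrays. After a straight line in hours was taken from each gene these were -0.31, -0.12 and 0.54. Both sets include the arrays at 66 and 72 h, where HHIP was not well above background, and the part of these arrays in r was not tested. SMO and GLI2 stayed at 0.85 before and 0.87 after that, SMO and PTCH1 at -0.56 and -0.68. These points share arrays, slides and scaling, and the correlations are descriptions.

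**Figure D3:**
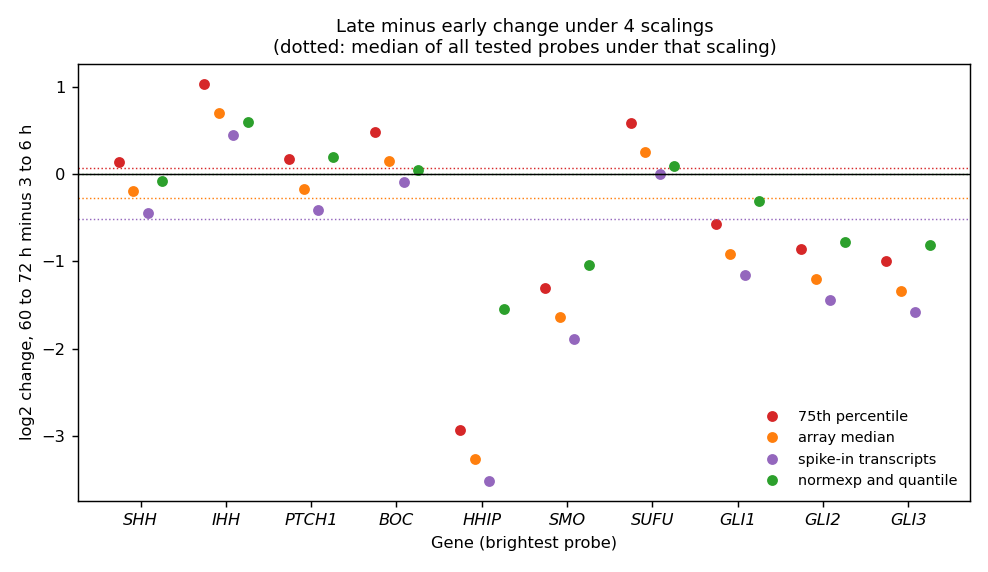
The late minus early log2 change of each gene's brightest probe under 4 scalings, with dotted lines at the median change of all tested probes under each. HHIP, SMO and the GLI genes lie below 0 and IHH and SUFU above 0 under all of them, and the spike-in values are the lowest.

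The rest of the pathway was read from 5 lists with 89 further genes, of which 77 had a probe well above background on at least 5 arrays and were tested for a slope on hours with limma, adjusted over all 32111 probes. Of these 77, 9 (11.7%) rose, 30 (39.0%) fell and 38 did not pass the test, and their median change was -0.20. Among all tested probes 27.4% rose and 24.7% fell (8798 and 7935), and among the brightest probes of all 16693 tested genes 21.3% rose and 32.7% fell. The list thus had a lower share of rising genes than either background and a higher share of falling ones, and nothing particular to it is read from that. The split of all probes moved with the scaling, to 4323 rising and 11561 falling with the array median and 1485 and 11187 with the spike-in, and in both of these the list had 0 rising by limma, with 1 and 0 at an unadjusted p under 0.05 and 9 rising by Spearman correlation under the 75th percentile.
Once slide entered the fit as a block, 2 genes of the list (2.6%) rose and 3 (3.9%) fell, near or below the 4.88% and 4.01% of all tested probes, so for most of them a trend and a difference between slides cannot be told apart. The 3 that fell were WDR35, RAB34 and FOXM1, and the 2 that rose were EVC and JAG2, the last of which did not pass without the block (these 5 are named by that count). EVC lies near background: it was well above it on 5 of the 19 arrays, the fewest the filter allows. Its change was 0.79, but 0.12 with normexp.

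The counts by list are small and stand beside 21.3% rising and 32.7% falling among the brightest probes of all tested genes. Among 6 tested genes for ligand lipidation and release 1 rose and 3 fell. DISP2, a relative of the transporter that releases ligand from its source, fell from a mean of 526 early to 209.8 late (change -1.33, limma adjusted p = 0.000222), with early arrays of 476 to 574 above late ones of 197 to 235. With the slide as a block its adjusted p was 0.70.
Among 8 tested receptor genes 2 rose and 4 fell. CDON, the co-receptor related to BOC, fell from 1116 to 626 (change -0.83, limma adjusted p = 6.88e-05, and 0.062 with the slide as a block). CDON is named after its values were seen.
Of 28 tested transducers, the kinases, ubiquitin ligase parts and ciliary regulators between Smoothened and GLI, 4 rose, 12 fell and 12 did not pass, with changes between -0.74 and 0.79. The 0.79 is that of EVC, which lies near background. Examples, named after their values were seen, are the arrestin gene ARRB2, which fell (change -0.59, limma adjusted p = 1.06e-05), and the casein kinase gene CSNK1E, which rose (change 0.45, limma adjusted p = 0.000865). With the slide as a block the limma adjusted p was 0.057 for ARRB2 and 0.157 for CSNK1E.

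Of 20 tested genes of the primary cilium, the antenna in which the pathway runs, 2 rose and 6 fell. WDR35, a subunit of the intraflagellar transport machinery, had a highest signal of 1213 at 8 h, a median of 859 and a lowest of 376 at 66 h. It fell with a change of -1.42 (limma adjusted p = 1.92e-09, and 0.0107 with the slide as a block).
Of 24 genes known as Hedgehog targets in some tissue, 15 were tested, of which 0 rose, 5 (33.3%) fell and 10 did not pass. Among the brightest probes of all tested genes 21.3% rose and 32.7% fell. Of the 24, 5 were well above background on no array. At an unadjusted p under 0.05 and by Spearman correlation 0 targets rose as well. With the slide as a block 1 target rose, JAG2 (limma adjusted p = 0.0298), and 2 fell. The 5 that fell without the block were FOXM1, RAB34, GREM1, SFRP1 and CDK6. RAB34, a small GTPase needed to build cilia, fell from between 12811 and 13702 early to between 5418 and 6194 late (change -1.18, limma adjusted p = 9.26e-07, and 0.00282 with the slide as a block).
CDK6, a kinase of the G1 phase, had the largest fall of the list, from 4442 to 1590.2 (change -1.48, limma adjusted p = 2.92e-05). The secreted BMP antagonist GREM1 fell from 655 to 245 (change -1.42, limma adjusted p = 1.21e-05) and the secreted Wnt antagonist SFRP1 from 6995 to 2668 (change -1.39, limma adjusted p = 0.000941). With the slide as a block the adjusted p was 0.144 for CDK6, 0.278 for GREM1 and 0.217 for SFRP1. All these targets are also under other control, and a part of Hedgehog signalling in their fall was not tested.

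Marker genes of 5 cell types were read over the same arrays. Among the brightest probes of all tested genes 21.3% rose and 32.7% fell. Falling were 60% of hESC, 44.4% of neuroectoderm, 15.4% of mesoderm and endoderm, 18.2% of trophoblast and amnion and 37.5% of fibroblast markers. The shares rising were 0%, 0%, 15.4%, 27.3% and 12.5% in the same order. Of 10 tested hESC markers 0 rose and 6 fell, with a summed signal of 930400 to 947080 early and 638490 to 680580 late. Of 9 tested neuroectoderm markers 0 rose and 4 fell (0 of either list rose by limma at an unadjusted p under 0.05 or by Spearman correlation), with sums of 41088 to 41914 early and 18317 to 23418 late, and SOX1 and ZIC1 were well above background on no array. Of 13 tested mesoderm and endoderm markers 2 rose (MESP1 and TBX6) and 2 fell (CER1 and FOXA2), with sums of 3595 to 4281 early and 2863 to 5444 late. The changes of these 4 were 1.74, 1.27, -2.59 and -0.61 in that order, and CER1 was well above background on 13 of the 19 arrays. Of 11 tested trophoblast and amnion markers 3 rose and 2 fell, with sums of 10272 to 11218 early and 11642 to 15718 late, and of 8 tested fibroblast markers 1 rose and 3 fell, with fibroblast sums of 63075 to 67045 early and 45402 to 64365 late. With slide as a block, 1 of these 23 calls passed by limma, the fall of DNMT3B among the hESC markers, so for the rest time and slide cannot be told apart. The sums weigh bright probes most. Early means were 27190 for NES and 10793 for SOX3 (neuroectoderm), 7651.5 for KRT7 (trophoblast and amnion) and 30203 for THY1 (fibroblast). A sum is therefore not the level of a cell type. The part of these markers in the Hedgehog values, and that of any mouse feeder RNA, was not tested.

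Among 13960 genes well above background on all 19 arrays, those with the course most like HHIP were SYNCRIP (r = 0.98) and HNRNPD (r = 0.98), both RNA-binding proteins, the collagen gene COL21A1 (r = 0.98), CDC123 (r = 0.98) and EMC7 (r = 0.98). The signal of SYNCRIP went from a mean of 28530.0 early to 8367 late, a change of -1.77, and the changes of the other 4 were between -1.21 and -0.72. The most opposite courses were those of the collagen gene COL4A6 (r = -0.95), the DNA repair gene MGMT (r = -0.95), ENTPD2 (r = -0.94), PGM1 (r = -0.94) and HS1BP3 (r = -0.94), with changes between 0.96 and 1.44. Over the 17 arrays with HHIP well above background these values ranged from 0.92 to 0.95 for the alike and from -0.93 to -0.85 for the opposite genes. The genes share arrays and slides with HHIP and were picked as the extremes of many, so r is a measure of likeness and no test.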

How the data were processed

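Per the labels, total RNA of KhES-3 cells was labelled with Cy3 and hybridized to one-colour Agilent 8x60K arrays. The authors deposited the Agilent Feature Extraction 10.10.1.1 output of each array, in which the processed signal is an intensity with background subtracted and no scaling between arrays, together with raw foreground and background intensities and flags (score of 0 or 1) for spots well above background. They also deposited a log2 value table, whose columns equal the processed intensity times 1 factor per array (0.905 to 1.38) and are blank for undetected spots. Those factors match the 75th percentile of the 8 h array over that of each array within 1.18%.

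From the processed intensities, control spots and outlier spots (0.632%) were left out, the spots of each of 50683 probes were averaged and log2 signals were scaled to the 75th percentile (526 to 800.3 before scaling). Of these probes, 28174 matched 20503 genes through RefSeq accessions, and the brightest probe stands for a gene. Precision is limited by there being 19 arrays. The limma package (3.58.1, R 4.3.3) fitted slopes for the 32111 probes that were detected well above background on 5 or more arrays, with Benjamini-Hochberg adjustment and calls at an adjusted p under 0.05. The fit was checked on simulated data. Python 3.11.15 with pandas 2.3.3 was used for tables.

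The 10 genes, the 5 pathway lists and the 5 marker lists were chosen with earlier results of these data known. Named outside the 10 are listed pathway genes that passed the test with a change of at least 1 either way, and the 5 genes most and the 5 least like HHIP. CDON, ARRB2, CSNK1E, FOXM1, EVC, JAG2 and a few marker genes are named outside this rule, after their values were seen. The alternatives were other scalings, normexp (offset 50) on the raw intensities with quantile normalization, the deposited table, other filters, windows and probes, log2 hours, Spearman correlation, the slide as a block and each array left out. Chosen after seeing the data were the window of 48 to 60 h, the detection limit in place of lower HHIP signals, and leaving out 14, 16 and 72 h. Blots, quantitative PCR and animal experiments were not analysed here.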

Additional observations from a re-analysis of the deposited data

How the results depend on the processing

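No paired analysis was possible because no time point was sampled more than once. The HHIP change (-2.93) stayed below 0 in every alternative run: -3.27 with the array median, -3.51 with the spike-in, -1.55 with normexp and quantile normalization, -1.85 in the deposited table (late value from 60 h alone), -1.91 with 6 to 10 h against 54 to 66 h, -1.41 with 48 to 60 h as the late window, -2.17 with signals below the detection limit put at it (which raised the 72 h signal only), and -3.47 to -2.29 leaving out 1 array. Among the other 9 genes, 2 changes that were larger than their scatter turned sign, BOC with the spike-in (-0.095) and GLI2 as the mean of its probes (0.032), the latter through the probe that departs at 14 and 72 h. PTCH1 and SHH, whose changes were smaller than their scatter, also crossed 0: PTCH1 with the array median (-0.17), the spike-in (-0.41) and without 6 h (-0.098) or 60 h (-0.012), and SHH with the array median (-0.19), the spike-in (-0.44), normexp (-0.080), the window of 48 to 60 h (-0.14) and without 6 h (-0.040) or 66 h (-0.021). Of the 77 pathway genes, 9 rose and 30 fell. The number rising by limma was 2 when slide entered as a block, 0 under array-median scaling (1 at an unadjusted p under 0.05), 0 under the spike-in (0 unadjusted) and 8 to 11 otherwise. The number falling was 3 with that block, 41 with the array median, 38 with the spike-in, 24 with normexp and 26 to 32 leaving out 1 array. Without the dim arrays at 14, 16 and 72 h, 10 rose and 29 fell. Of all probes, 4.88% rose and 4.01% fell with the block, 13.5% and 36.0% under array-median scaling, 4.62% and 34.8% under the spike-in and 22.3% and 22.3% with normexp. The cause of these moves was not tested. SHH, BOC and late HHIP signals lie near background, so that small differences there were not detectable.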
